A study of Mus musculus with 9 samples.

Results

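The genes described here are 53 genes of interferon signalling: the receptor chains for interferons, their kinases, the STAT and IRF transcription factors, and antiviral genes that interferons induce. They were taken by name from the deposited gene table, where all 53 matched 1 Ensembl identifier each, out of 56289 identifiers in all. Poly-A RNA of 9 mouse libraries was sequenced, 3 in each of 3 groups: TNF plus WBG (24 h of tumour necrosis factor alpha with Wang Bi granules, a herbal medicine from China), TNF (tumour necrosis factor alpha alone for 24 h) and untreated. All libraries are labelled as RAW264.7, a macrophage-like line of BALB/c origin, and the labels give no dose, no time for the untreated cells and no statement that replicates are separate cultures. In comparisons with untreated cells, treatment and time in culture cannot be told apart, and a p-value reflects no more than the scatter among these libraries, which may be technical. Values are the authors' FPKM (fragments per kilobase of gene model and per mega of fragments), and libraries held an estimated 18.9 to 26.1 M (mega) fragments, taking the unit in which low values step to be a single fragment.

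The label of the cells did not match the transcripts. Of 12 macrophage markers, 2 (Cd14 and Cd68) reached 1 FPKM in any library, and Ptprc, Itgam, Adgre1 and Tyrobp were listed at 0 in all 9. The summed level of the 12 markers was 7.85 to 10.4 FPKM in TNF plus WBG libraries, 6.93 to 7.93 FPKM in TNF libraries and 5.96 to 7.29 FPKM in untreated libraries. The summed level of 10 fibroblast markers was 3271 to 3585 FPKM over the 9 libraries, and Lum alone among them was listed at 0; with TNF, Col1a1 and Col1a2 of that list rose and Pdgfrb, Postn and Vim fell. Cd14 rose with TNF plus WBG against untreated. Of 8 markers of plasmacytoid dendritic cells and lymphocytes, Tcf4 and Bst2 reached 1 FPKM, and Bst2 is also 1 of the 53 genes; none of 8 epithelial and endothelial markers did. Whether cells of another kind contributed to any change below was not tested. In bulk RNA, fewer cells of a type and less RNA per cell cannot be told apart.

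Interferons are secreted proteins that put cells into an antiviral state. Type I interferons bind the receptor made of Ifnar1 and Ifnar2, and interferon gamma binds that of Ifngr1 and Ifngr2. Kinases of the JAK family bound to these receptors phosphorylate STAT proteins. Stat2 then acts with Irf9 on a promoter element called the ISRE (interferon-stimulated response element), while interferon gamma acts through an element called GAS (gamma-activated sequence). TNF mainly acts through NF-kB, which binds kappa-B elements, and in many cell types it also raises Irf1 and some interferon-stimulated genes.

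The effect of TNF alone is the comparison of TNF against untreated. Of the 53 genes 21 rose, none fell, 20 did not pass and 12 were too low to be tested, since a gene was tested only where it had 1 FPKM or more in at least 3 of the 9 libraries. The steepest rises were those of Ifngr2 (2.46-fold), the ADP-ribosyltransferase Parp14 (2.39-fold), the nucleic acid sensor Zbp1 (2.32-fold) and Bst2, which holds budding virions on the cell surface (2.13-fold). Among the 41 genes tested, these 4 were the only ones at or above a 2-fold ratio of mean FPKM. The 12 genes not tested, with a mean under 1 FPKM in untreated libraries, were given no ratio. The median log2 difference over all 53 genes, without any filter, was 0.23, and over all 13026 genes tested it was 0.00. Among all genes tested 6.43% rose and 4.21% fell, 10.6% in either direction (limma, adjusted p under 0.05). Of the set, 21 of the 41 genes tested rose, which is 39.6% of all 53. The libraries of the groups did not overlap, with TNF higher, for 26 of the 41 genes of the set that were tested (15.5% of all genes tested), and also for Irf7, Ifit1 and Ifi44, which were not tested. For 1 gene of the 41, the kinase Jak1, every TNF library lay below every untreated one (14.4% of all genes tested).

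Of the 21 calls, 9 held under every alternative setting and in every omission of a library: Ifngr2, Irf1, Ddx58, Zbp1, Bst2, Ifitm3, Parp9, Parp14 and Dtx3l. The other 12 were Ifngr1, Jak2, Stat2, Ifih1, Oasl2, Eif2ak2, Samd9l, Ifitm2, Isg15, Parp12, Ifi35 and Ifi27, and each was lost in 1 or more omissions given beside its values. Without the filter, Ifngr1, Jak2, Stat2, Ifih1, Oasl2, Ifitm2, Isg15, Parp12 and Ifi27 also lost their calls. With the replicate block Ifngr1, Jak2, Stat2, Ifih1, Ifitm2 and Ifi27 did. With only the 6 libraries compared, Jak2, Ifih1, Ifitm2, Isg15 and Ifi27 did. Leaving out untreated library 1 gave 10 rises in place of 21, and leaving out untreated library 3, TNF library 2 or TNF library 3 gave 12 each.

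Promoter windows show which of the elements named above lie near these genes. Windows from 250 bases before to 50 bases after the start, from RefSeq on GRCm38.p6, were found for 43 of the 53 genes (52 windows); Usp18, Dhx58, Zbp1, Oas2, Mx1, Mx2, Parp9, Parp14, Ifi27 and Rtp4 had none in the table used. Both strands were searched for the ISRE core, which is GAAA, any 2 bases and GAAA again, the GAS element TTCNNNGAA, which is its own reverse complement, and the kappa-B consensus. The ISRE core was in 32.7% of the 52 windows, and in 3.44% of all 32851 windows of the same length. GAS was in 23.1% of the windows of the set, beside 8.3% of all windows, and kappa-B in 7.69%, beside 4.51%. By gene, 8 of 17 that rose with TNF held an ISRE core (Stat2, Ddx58, Ifih1, Eif2ak2, Bst2, Ifitm2, Ifitm3 and Isg15), as did 4 of 18 not called (Irf2, Socs1, Trim21 and Trim30a) and 4 of 8 not tested (Ifit1, Ifit3, Oas1a and Rsad2). GAS was held by 5 of the 17 genes that rose, 6 of the 18 not called and 1 of the 8 not tested. A match is a run of letters, not a measured binding site.

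Of the 8 genes that rose and hold an ISRE core, 6 windows are shown, 5′ to 3′ along the gene, to let the element be compared between them. Capitals mark the ISRE core on either strand, and where matches overlap the capitals run on, as in Bst2 and Isg15.
Bst2 (chr8:71537423-71537722, minus strand): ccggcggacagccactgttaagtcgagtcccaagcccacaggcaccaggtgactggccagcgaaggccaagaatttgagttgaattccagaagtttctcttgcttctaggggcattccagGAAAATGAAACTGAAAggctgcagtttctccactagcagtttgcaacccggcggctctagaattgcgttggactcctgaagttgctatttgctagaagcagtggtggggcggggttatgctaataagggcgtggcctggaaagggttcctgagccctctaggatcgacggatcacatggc
Ddx58 (chr4:40239776-40240075, minus strand): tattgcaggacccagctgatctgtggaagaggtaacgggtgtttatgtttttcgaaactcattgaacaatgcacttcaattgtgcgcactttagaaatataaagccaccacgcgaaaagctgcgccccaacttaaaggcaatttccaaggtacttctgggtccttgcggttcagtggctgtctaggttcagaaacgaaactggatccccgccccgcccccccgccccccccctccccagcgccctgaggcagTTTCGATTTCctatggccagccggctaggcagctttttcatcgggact
Isg15 (chr4:156200769-156201068, minus strand): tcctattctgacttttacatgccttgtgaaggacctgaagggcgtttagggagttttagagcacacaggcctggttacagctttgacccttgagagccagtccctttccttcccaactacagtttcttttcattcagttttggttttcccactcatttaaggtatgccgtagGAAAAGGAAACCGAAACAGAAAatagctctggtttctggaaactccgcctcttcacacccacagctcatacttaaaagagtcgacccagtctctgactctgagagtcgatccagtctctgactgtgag
Ifitm3 (chr7:141010695-141010994, minus strand): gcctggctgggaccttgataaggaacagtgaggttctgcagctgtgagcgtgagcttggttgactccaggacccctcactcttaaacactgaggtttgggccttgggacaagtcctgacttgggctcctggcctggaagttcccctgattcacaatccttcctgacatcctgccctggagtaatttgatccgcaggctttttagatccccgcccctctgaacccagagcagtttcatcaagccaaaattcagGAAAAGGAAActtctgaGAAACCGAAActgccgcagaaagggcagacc
Eif2ak2 (chr17:78882523-78882822, minus strand): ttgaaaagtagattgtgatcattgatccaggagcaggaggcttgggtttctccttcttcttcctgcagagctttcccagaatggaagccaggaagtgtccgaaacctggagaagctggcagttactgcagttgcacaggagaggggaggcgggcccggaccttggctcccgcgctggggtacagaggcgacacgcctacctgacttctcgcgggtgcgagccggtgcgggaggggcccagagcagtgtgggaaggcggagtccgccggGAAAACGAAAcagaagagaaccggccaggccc
Stat2 (chr10:128270248-128270547, plus strand): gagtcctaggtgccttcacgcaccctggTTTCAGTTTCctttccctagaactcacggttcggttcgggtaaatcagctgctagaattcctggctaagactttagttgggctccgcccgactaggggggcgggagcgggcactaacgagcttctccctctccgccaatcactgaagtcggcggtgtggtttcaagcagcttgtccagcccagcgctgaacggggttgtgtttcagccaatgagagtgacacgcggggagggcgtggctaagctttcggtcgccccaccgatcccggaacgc
In Isg15, 3 matches overlap. The 2 ISRE core matches of Ifitm3 and those of Ddx58 and Eif2ak2 lie after the start.

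The kappa-B consensus was found in 4 genes of the set, of which Ifngr2, Irf1 and Bst2 rose with TNF and Irf2 did not pass. Their 30-base stretches are shown with the match in capitals.
Irf2 (chr8:46739718-46739747, plus strand): cgggggtgggGGGGATTTCCagcctcggct
Bst2 (chr8:71537595-71537624, minus strand): cttgcttctaGGGGCATTCCaggaaaatga
Irf1 (chr11:53769991-53770020, plus strand): agtccgggccGGGGAATCCCgctaagtgtt
Ifngr2 (chr16:91546974-91547003, plus strand): ggaacaccggGGAAAGTCCCcacgggccgg
In Bst2 the kappa-B and GAS matches overlap each other, and GAS overlaps the ISRE core. The 4 genes not tested that hold an ISRE core are shown next, since their level stayed under 1 FPKM in all 9 libraries; capitals mark the first match in the window.
Ifit1 (chr19:34640775-34640804, plus strand): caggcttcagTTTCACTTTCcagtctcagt
Ifit3 (chr19:34583363-34583392, plus strand): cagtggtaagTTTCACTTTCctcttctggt
Oas1a (chr5:120907526-120907555, minus strand): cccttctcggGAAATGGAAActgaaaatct
Rsad2 (chr12:26456553-26456582, minus strand): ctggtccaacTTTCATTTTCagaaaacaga

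**Figure D1:**
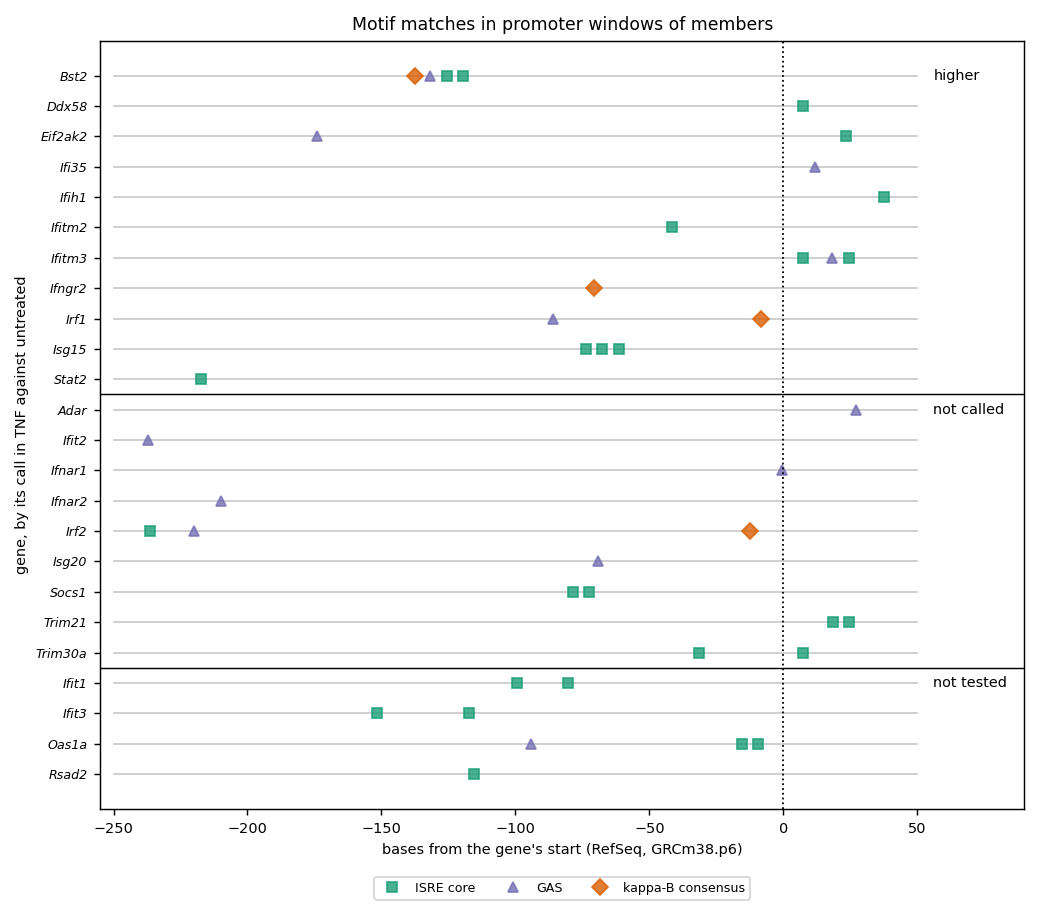
Positions of ISRE core, GAS and kappa-B matches in the promoter windows of the genes of the set that hold any, in bases from the gene's start, with genes split by their call in TNF against untreated. ISRE core matches stand in windows of all 3 classes, in 8 genes that rose, 4 not called and 4 not tested.

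**Figure D2:**
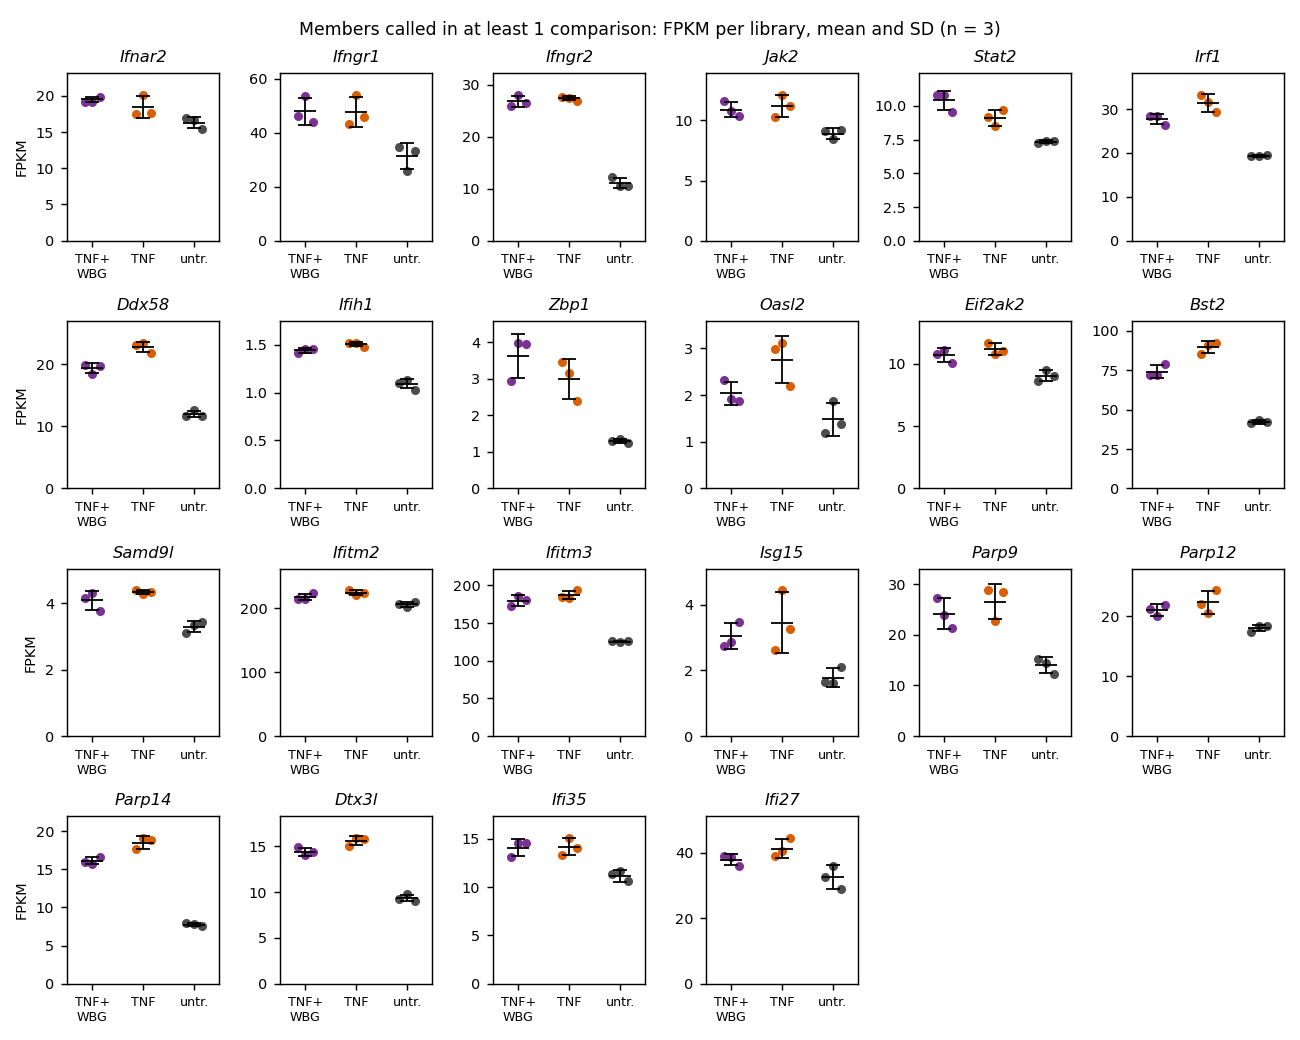
FPKM of the 22 genes of the set that were called in at least 1 comparison, 1 panel per gene. Points are libraries, bars are mean and SD (n = 3), and each vertical axis starts at 0; in the panel of Bst2 the TNF plus WBG libraries lie between 71.7 and 78.8 FPKM, the TNF libraries between 85.3 and 92.5 FPKM and the untreated libraries between 41.3 and 43.5 FPKM.

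Among the receptors, both chains for interferon gamma rose and neither chain for type I interferons passed. Ifngr2, the signalling chain that carries Jak2, had 27.7, 27.5 and 26.9 FPKM in TNF libraries, against 12.3, 10.5 and 10.6 FPKM in untreated libraries. The groups were far apart, with a log2 fold change of 1.23 ± 0.06 (SE; limma adjusted p = 4.28e-06). Ifngr1, the ligand-binding chain, had 43.3, 54.0 and 45.8 FPKM in TNF libraries, against 34.9, 26.0 and 33.4 FPKM in untreated libraries. Its groups did not overlap (1.52-fold, limma adjusted p = 0.0181), but the call was lost without TNF library 2 (adjusted p = 0.0606), the highest library. It was also lost without the filter and with the replicate block. Ifnar1 averaged 27.8 ± 4.06 FPKM with TNF and 28.4 ± 5.41 FPKM in untreated cells (SD, n = 3; log2 fold change -0.03 ± 0.14, SE). The sign of that difference turned without untreated library 3 or TNF library 2. Ifnar2 averaged 18.4 ± 1.51 FPKM with TNF and 16.3 ± 0.792 FPKM in untreated cells (SD, n = 3; limma adjusted p = 0.158).

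Of the kinases, Jak2, which serves the interferon gamma receptor, had 10.3, 12.1 and 11.2 FPKM in TNF libraries, against 9.13, 8.42 and 9.17 FPKM in untreated libraries. The lowest TNF library lay above the highest untreated one, a ratio of 1.26 (limma adjusted p = 0.0278). That call was lost in 5 of 9 omissions, without each untreated library and without TNF libraries 2 and 3 (adjusted p 0.0606 to 0.0912). Jak1, which is shared by both receptor types, had 41.1, 42.0 and 41.2 FPKM in TNF libraries, against 42.7, 44.4 and 42.9 FPKM in untreated libraries. The difference was small, with a log2 fold change of -0.06 ± 0.04 (SE; limma adjusted p = 0.395). Tyk2, the partner of Ifnar1, averaged 4.5 ± 0.186 FPKM with TNF and 3.92 ± 0.319 FPKM in untreated cells (SD, n = 3; limma adjusted p = 0.188).

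Irf1 stood out among the transcription factors. Irf1, an activator of antiviral and antigen presentation genes, had 33.2, 31.6 and 29.3 FPKM in TNF libraries, against 19.3, 19.2 and 19.6 FPKM in untreated libraries. Untreated libraries lay within a narrow band and all TNF libraries far above it, a log2 fold change of 0.67 ± 0.05 (SE; limma adjusted p = 7.81e-05). Stat2 had 9.16, 8.51 and 9.68 FPKM in TNF libraries, against 7.21, 7.42 and 7.4 FPKM in untreated libraries. Its groups did not overlap (1.24-fold, limma adjusted p = 0.029), and the call was lost without any 1 untreated library and without TNF libraries 1 and 3 (adjusted p 0.0693 to 0.101). Irf9, the DNA-binding partner of Stat2, did not pass, with 4.39 ± 0.728 FPKM with TNF and 4.31 ± 0.155 FPKM in untreated cells (SD, n = 3).

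Irf3, which drives transcription of interferon beta once phosphorylated, averaged 22.2 ± 2.78 FPKM with TNF and 21.1 ± 1.97 FPKM in untreated cells (SD, n = 3; limma adjusted p = 0.731). Irf2, often a competitor of Irf1, averaged 14.0 ± 2.05 FPKM with TNF and 11.7 ± 1.66 FPKM in untreated cells (SD, n = 3; limma adjusted p = 0.306). Irf7, which amplifies type I interferon production, was too low for the filter: it had 0.816, 1.25 and 0.983 FPKM in TNF libraries, against 0.414, 0.461 and 0.627 FPKM in untreated libraries. Every TNF library was above every untreated one, without a test. Of the inhibitors, Socs1, which blocks JAK kinases, averaged 3.89 ± 0.305 FPKM with TNF and 3.27 ± 0.471 FPKM in untreated cells (SD, n = 3; limma adjusted p = 0.246). Usp18, which removes Isg15 from proteins and dampens signalling at Ifnar2, was not tested and had 0.477, 0.152 and 0.257 FPKM in TNF libraries, against 0.489, 0.208 and 0.412 FPKM in untreated libraries, with overlapping groups.

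Of the 4 nucleic acid sensors 3 rose. Ddx58 encodes RIG-I, a sensor of viral RNA ends, and had 23.1, 23.5 and 21.9 FPKM in TNF libraries, against 11.6, 12.6 and 11.7 FPKM in untreated libraries. Every TNF library lay well above every untreated one (1.9-fold; log2 fold change 0.88 ± 0.05, SE; limma adjusted p = 1.06e-05). Zbp1, a sensor of Z-form nucleic acids that can start cell death, had 3.46, 3.15 and 2.39 FPKM in TNF libraries, against 1.29, 1.35 and 1.24 FPKM in untreated libraries. All TNF libraries were above all untreated ones, though spread more widely (log2 fold change 0.80 ± 0.13, SE; limma adjusted p = 0.00416). Ifih1 encodes MDA5, a sensor of long double-stranded RNA, and had 1.52, 1.52 and 1.48 FPKM in TNF libraries, against 1.1, 1.13 and 1.03 FPKM in untreated libraries. It rose 1.39-fold from a low level (limma adjusted p = 0.0443), and each of the 9 omissions of a library ended the call (adjusted p 0.0633 to 0.126). Dhx58, a regulator of both RNA sensors, did not pass (limma adjusted p = 0.675).

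The PARP and DTX3L genes were the 1 role in which every gene was tested and rose. Every gene tested also rose among the IFITM genes (Ifitm2 and Ifitm3) and in the role of Oasl2 and Eif2ak2. Both of those roles held other genes too low to be tested. Parp14 had 17.6, 19.1 and 18.9 FPKM in TNF libraries, against 7.97, 7.78 and 7.5 FPKM in untreated libraries. The groups did not overlap (log2 fold change 1.16 ± 0.05, SE; limma adjusted p = 2.15e-06). Parp9 had 28.8, 22.7 and 28.5 FPKM in TNF libraries, against 15.3, 14.5 and 12.3 FPKM in untreated libraries. Dtx3l, the ubiquitin ligase that binds Parp9, had 15.0, 15.9 and 15.8 FPKM in TNF libraries, against 9.22, 9.74 and 9.07 FPKM in untreated libraries. The pair rose 1.9-fold and 1.67-fold (limma adjusted p = 0.00189 for Parp9 and 4.08e-05 for Dtx3l). Exons of Parp9 and Dtx3l overlap on opposite strands in GENCODE M21, and no source used here states whether counting used strand, so reads of the overlap cannot be assigned to 1 of them. Parp12, which inhibits translation of viral RNA, rose 1.24-fold, with 22.0, 20.5 and 24.3 FPKM in TNF libraries, against 17.4, 18.4 and 18.3 FPKM in untreated libraries. Its call (limma adjusted p = 0.0228) was lost without any 1 untreated library and without TNF libraries 1 and 3 (adjusted p 0.0512 to 0.0789).

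Among the antiviral effectors, the membrane proteins Bst2 and Ifitm3 had the smallest adjusted p. Bst2 had 85.3, 91.3 and 92.5 FPKM in TNF libraries, against 41.3, 43.5 and 41.9 FPKM in untreated libraries. The groups were far apart (log2 fold change 1.07 ± 0.05, SE; limma adjusted p = 2.67e-06). Ifitm3, which hinders the fusion of virus and cell membranes, had 185.0, 183.4 and 193.5 FPKM in TNF libraries, against 126.0, 124.6 and 126.0 FPKM in untreated libraries. The groups were again well apart (1.49-fold, limma adjusted p = 1.92e-05). Ifitm2, its close relative and the most abundant gene of the set per length, had 228.2, 220.7 and 224.6 FPKM in TNF libraries, against 207.1, 202.3 and 210.1 FPKM in untreated libraries. It rose by 1.09 times (limma adjusted p = 0.0437), and 8 of 9 omissions ended that call (adjusted p 0.0581 to 0.129; all but that of TNF plus WBG library 3). Ifitm1 was not tested and reached at most 0.662 FPKM in any library.

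Rises were also called for Isg15, Oasl2, Eif2ak2, Samd9l, Ifi35 and Ifi27, and each of these calls was lost in some omissions of 1 library. Isg15, a ubiquitin-like protein that is joined to other proteins, had 2.63, 4.43 and 3.27 FPKM in TNF libraries, against 1.63, 1.6 and 2.09 FPKM in untreated libraries, and rose 1.94-fold (limma adjusted p = 0.0239). Without untreated library 1 or 2 or TNF library 2 or 3 the adjusted p was 0.0557 to 0.0802. Oasl2, a relative of the oligoadenylate synthetases, had 2.98, 3.12 and 2.2 FPKM in TNF libraries, against 1.19, 1.87 and 1.38 FPKM in untreated libraries (1.87-fold, limma adjusted p = 0.0223). Its call was lost without untreated library 1 or 3 or TNF library 1 or 2 (adjusted p 0.0721 to 0.079). Eif2ak2, the kinase that halts translation on double-stranded RNA, had 11.7, 10.8 and 11.0 FPKM in TNF libraries, against 8.6, 9.51 and 8.99 FPKM in untreated libraries. Samd9l, a restriction factor of poxviruses, had 4.39, 4.28 and 4.34 FPKM in TNF libraries, against 3.1, 3.36 and 3.43 FPKM in untreated libraries. The groups did not overlap for either gene (1.24-fold for Eif2ak2 and 1.31-fold for Samd9l). Eif2ak2 (adjusted p 0.0517 to 0.0672) lost its call without untreated library 1 or 3 or TNF library 1 or 3, and Samd9l (0.053 to 0.0661) without untreated library 1 or any 1 TNF library.

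Ifi35, a partner of the STAT-binding protein Nmi, had 13.3, 15.1 and 14.1 FPKM in TNF libraries, against 11.4, 11.7 and 10.6 FPKM in untreated libraries. Ifi27 had 39.0, 40.5 and 44.5 FPKM in TNF libraries, against 32.6, 36.1 and 28.8 FPKM in untreated libraries. Both groups of libraries were close together but did not overlap (1.26-fold for Ifi35 and 1.27-fold for Ifi27). Both calls were lost without untreated library 1 or 3 or TNF library 2 or 3 (adjusted p 0.0529 to 0.0729 for Ifi35 and 0.0738 to 0.106 for Ifi27). None of the 3 TRIM genes passed. Trim25, the ubiquitin ligase that activates RIG-I, had 2.92, 2.68 and 3.29 FPKM in TNF libraries, against 2.81, 3.25 and 7.45 FPKM in untreated libraries, where library 3 alone was high. Trim30a averaged 2.23 ± 0.459 FPKM with TNF and 1.49 ± 0.165 FPKM in untreated cells (SD, n = 3; limma adjusted p = 0.0827). Ifit2, an RNA-binding antiviral protein, had 12.2 ± 0.881 FPKM with TNF and 10.8 ± 0.359 FPKM in untreated cells (SD, n = 3; limma adjusted p = 0.136). The other genes tested and not called, by log2 fold change, ran from -0.03 (Lgals3bp, a secreted galectin ligand) to 0.27 (Xaf1, a promoter of apoptosis), with Sp100, Trim21, Adar, Rtp4, Isg20 and Herc6 between.

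Many of the genes most often used as readouts of type I interferon stayed near the floor. Of the 53 genes 9 reached 1 FPKM in no library, and 12 in all failed the filter: Ifit1, Ifit3, Oas1a, Oas2, Mx1, Mx2, Rsad2, Cmpk2, Ifitm1, Ifi44, Irf7 and Usp18. Rsad2, which encodes viperin, had 0.0512, 0.132 and 0.082 FPKM in TNF libraries, against 0.0342, 0.0552 and 0.0811 FPKM in untreated libraries. Ifit1, which binds foreign RNA caps, had 0.383, 0.292 and 0.527 FPKM in TNF libraries, against 0.136, 0.166 and 0.0527 FPKM in untreated libraries. Every TNF library was above every untreated one for Ifit1 but not for Rsad2. Oas1a was listed at 0 in 7 libraries and was at most 0.0491 FPKM in the others. Mx1, a GTPase against influenza virus that is truncated in many inbred strains, averaged 0.36 ± 0.149 FPKM with TNF and 0.217 ± 0.0407 FPKM in untreated cells (SD, n = 3). Of the genes tested, Rtp4 alone reached 1 FPKM in fewer than 3 untreated libraries. Ifit3 has a near-identical neighbour, Ifit3b, so its values are uncertain.

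**Figure D3:**
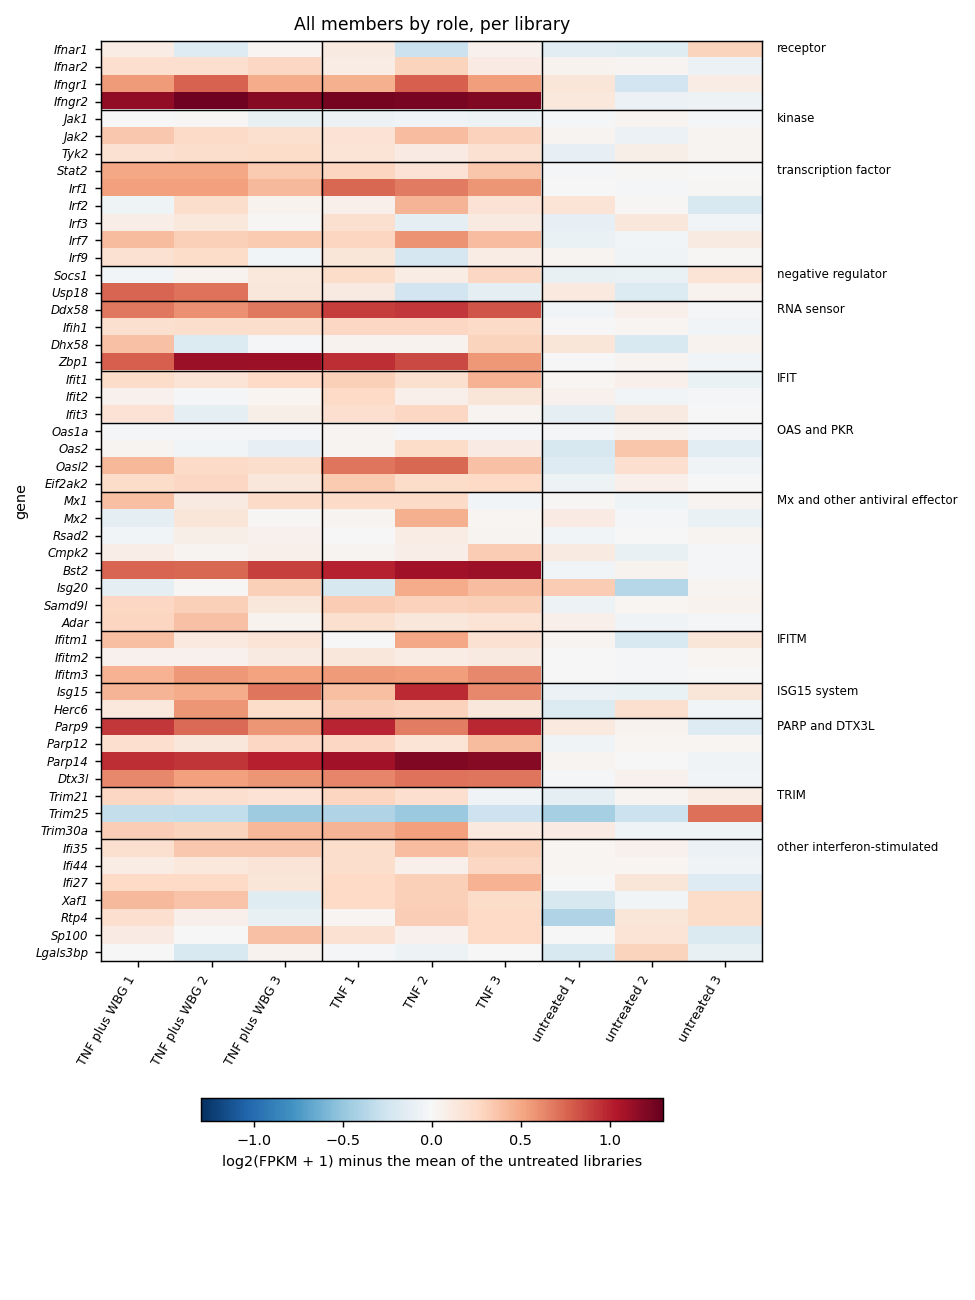
Each cell is the log2(FPKM + 1) of 1 gene in 1 library minus the mean of the 3 untreated libraries, with the 53 genes grouped by role. The rows of Ifngr2, Ddx58, Zbp1, Bst2, Parp9 and Parp14 are red in the TNF plus WBG and TNF libraries, and Trim25 is red in untreated library 3 alone.

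The interferons themselves were at or near 0. Of 20 ligand genes listed, none was tested, the highest value in any library was 0.0832 FPKM (Ifna11), Ifnb1 reached at most 0.058 FPKM, and Ifng was listed at 0 in all 9 libraries. In a list of 14 sensing adaptors, kinases and other genes upstream of the interferon genes (the sensing list), 4 rose and 2 fell with TNF (12 were tested). Of all genes tested, 6.43% rose and 4.21% fell. Irf5, a transcription factor of inflammatory genes, had 2.44, 2.31 and 2.32 FPKM in TNF libraries, against 0.926, 1.13 and 0.842 FPKM in untreated libraries (limma adjusted p = 0.000456). Irf5 passed the filter through its treated libraries, since untreated libraries 1 and 3 lay under 1 FPKM. Its call, counted among the 4, therefore adds no support beyond the values. Traf3, an adaptor of these pathways, had 7.37, 6.99 and 6.71 FPKM in TNF libraries, against 4.13, 4.45 and 5.21 FPKM in untreated libraries (limma adjusted p = 0.00613). Mavs, the mitochondrial adaptor of RIG-I and MDA5, fell to 10.8, 10.9 and 10.3 FPKM in TNF libraries, against 13.3, 13.2 and 12.6 FPKM in untreated libraries (limma adjusted p = 0.00757). Ikbke, a kinase that phosphorylates Irf3, rose 1.37-fold (limma adjusted p = 0.0259; 0.0589 to 0.0903 without untreated library 1 or 3 or any 1 TNF library). Ticam1, the adaptor of Tlr3, fell (ratio 0.774, limma adjusted p = 0.0429), a call lost in 8 of 9 omissions, all but that of untreated library 2 (adjusted p 0.0543 to 0.129). Rises numbered 2 in place of 4 in the fits that left out untreated library 1 or 3 or TNF library 2 or 3, and falls numbered 1 in place of 2 in all omissions other than that of untreated library 2.

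Among the JAK-STAT regulators, Stat6 rose by 1.09 times (limma adjusted p = 0.0389; 0.0544 to 0.123 in the 9 omissions). Of 57 further interferon-stimulated genes 36 were tested, 14 rose and none fell, while 6.43% of all genes tested rose and 4.21% fell. Casp4, the caspase that senses bacterial lipopolysaccharide in the cytosol, led them with 21.4, 19.1 and 18.5 FPKM in TNF libraries, against 5.63, 5.16 and 6.3 FPKM in untreated libraries (3.45-fold, limma adjusted p = 7.92e-06). Ube2l6, the enzyme that loads Isg15, rose 2.2-fold (limma adjusted p = 0.0329; 0.0743 to 0.102 without untreated library 1 or 3 or any 1 TNF library). Slfn2 had 0.846, 1.19 and 1.29 FPKM in TNF libraries, against 0.138, 0.139 and 0.193 FPKM in untreated libraries (limma adjusted p = 0.00242). It passed the filter through treated libraries alone, that is, through the groups where it was high. Its call, counted among the 14, therefore adds no support beyond the values. No gene of that list fell with all libraries; 1 fell without untreated library 2 and 2 without TNF plus WBG library 2.

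The effect of WBG on top of TNF is the comparison of TNF plus WBG against TNF. No gene of the set passed in either direction (limma; 0.0998% of all 13026 genes tested were called, 0.0691% higher and 0.0307% lower), and the smallest adjusted p in the set was 0.249, that of Bst2. At an unadjusted p under 0.05 there were 6 of the 41 genes of the set that were tested, beside 9.1% of all genes tested. The median log2 difference of the 53 genes was -0.05, with 38 below 0 and 15 above, and the median over all genes tested was -0.0026. The libraries did not overlap, with TNF plus WBG lower, for 7 of the 41 genes of the set that were tested: Irf1, Ddx58, Ifih1, Ifit2, Bst2, Parp14 and Dtx3l (7.72% of all genes tested). The same held for Oas2, which was not tested. For none of the genes tested in the set did the groups stand apart with TNF plus WBG higher (7.03% of all genes tested).

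Bst2 had 72.1, 71.7 and 78.8 FPKM in TNF plus WBG libraries, against 85.3, 91.3 and 92.5 FPKM in TNF libraries. The ratio was 0.827, with a log2 fold change of -0.27 ± 0.05 (SE). Ddx58 had 19.9, 18.5 and 19.8 FPKM in TNF plus WBG libraries, against 23.1, 23.5 and 21.9 FPKM in TNF libraries (log2 fold change -0.22 ± 0.05, SE; limma adjusted p = 0.353). Parp14 had 16.0, 15.7 and 16.6 FPKM in TNF plus WBG libraries, against 17.6, 19.1 and 18.9 FPKM in TNF libraries (log2 fold change -0.19 ± 0.05, SE; limma adjusted p = 0.411). For these 3 genes, and also for Irf1, Ifih1 and Dtx3l, all TNF plus WBG libraries were below all TNF libraries and above all untreated ones. Irf1 had 28.4, 28.5 and 26.3 FPKM in TNF plus WBG libraries, against 33.2, 31.6 and 29.3 FPKM in TNF libraries (log2 fold change -0.17 ± 0.05, SE; limma adjusted p = 0.469). Of the 21 genes called in TNF against untreated, 18 had a lower mean with TNF plus WBG than with TNF. Both comparisons use the same TNF libraries, so these counts are not independent. The 21 genes were picked for high values in those libraries, which favours a lower mean in another group in advance. The count of 18 therefore cannot show an effect of WBG. Nor can the order of the groups in Bst2, Ddx58, Parp14, Irf1, Ifih1 and Dtx3l, which are all among the 21. The share of all genes tested that lay in that order was not computed.

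Some genes lay the other way. Stat2 had 10.8, 10.8 and 9.58 FPKM in TNF plus WBG libraries, against 9.16, 8.51 and 9.68 FPKM in TNF libraries, and library 3 with WBG overlapped the TNF group (log2 fold change 0.17 ± 0.07, SE; limma adjusted p = 0.504). Zbp1 had 2.93, 3.99 and 3.95 FPKM in TNF plus WBG libraries, overlapping the TNF libraries given above (limma adjusted p = 0.679). Usp18 had 1.3, 1.23 and 0.515 FPKM in TNF plus WBG libraries, against 0.477, 0.152 and 0.257 FPKM in TNF libraries. All 3 values with WBG were above those with TNF alone, but Usp18 failed the filter and was not tested, and its untreated values reached 0.489 FPKM. Ifngr2 and Ifngr1 were nearly level between the treated groups, with 26.8 ± 1.07 and 48.0 ± 5.07 FPKM in TNF plus WBG libraries, against 27.4 ± 0.409 and 47.7 ± 5.62 FPKM in TNF libraries (SD, n = 3). Of the other lists, no gene of the sensing list, no JAK-STAT regulator and no further interferon-stimulated gene passed in this comparison.

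TNF plus WBG against untreated asks where the cells stood with both agents. Of the 41 genes of the set that were tested 14 rose, none fell and 27 did not pass, while 5.52% of all genes tested rose and 3.67% fell (9.19% in all). The median log2 difference over all 53 genes was 0.22, beside -0.0026 over all genes tested. Libraries did not overlap, with TNF plus WBG higher, for 24 of the 41 genes of the set that were tested (14.5% of all genes tested), and also for Irf7, Usp18, Ifit1, Mx1 and Ifi44, which were not tested. Ifngr2 had 25.9, 28.0 and 26.5 FPKM in TNF plus WBG libraries and rose 2.41-fold over untreated libraries (limma adjusted p = 6.1e-06). Zbp1 rose 2.81-fold (limma adjusted p = 0.00129) and Parp14 rose 2.08-fold (limma adjusted p = 6.63e-06), and of the genes tested these 3 were at or above a 2-fold ratio. Genes not tested were given no ratio. Bst2 rose 1.76-fold, Ddx58 1.62-fold, Irf1 1.43-fold, Stat2 1.42-fold and Ifitm3 1.43-fold (limma adjusted p at most 0.0029, that of Stat2).

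Parp9 had 27.3, 23.9 and 21.3 FPKM and Dtx3l 14.9, 14.0 and 14.4 FPKM in TNF plus WBG libraries, and both rose over untreated libraries (limma adjusted p = 0.00523 for Parp9 and 0.00013 for Dtx3l). The calls of these 10 genes held in every omission and setting. Ifitm3 had 172.3, 186.3 and 181.1 FPKM in TNF plus WBG libraries, all far above the untreated ones. Jak2 had 11.6, 10.8 and 10.4 FPKM, Ifi35 13.1, 14.6 and 14.6 FPKM and Ifngr1 46.1, 53.7 and 44.1 FPKM with both agents, and none of these overlapped the untreated libraries. Ifngr1 also rose (1.53-fold, limma adjusted p = 0.0179; 0.067 without TNF plus WBG library 2), as did Ifi35 (1.25-fold, 0.0234; 0.0608 to 0.0859 without untreated library 1 or 3 or TNF plus WBG library 2 or 3). Jak2 (1.23-fold, limma adjusted p = 0.0468) lost its call in 7 of 9 omissions, all but those of TNF libraries 1 and 2 (adjusted p 0.0587 to 0.145). Ifnar2, the 1 gene called here and not in TNF against untreated, had 19.2, 19.2 and 19.9 FPKM in TNF plus WBG libraries, against 16.9, 16.7 and 15.4 FPKM in untreated libraries (limma adjusted p = 0.048). It lost its call in 8 of 9 omissions, all but that of TNF library 2 (adjusted p 0.056 to 0.15). Without the filter, Ifngr1, Ifi35, Jak2 and Ifnar2 also lost their calls, as did Ifngr1, Jak2 and Ifnar2 with the replicate block. Median-ratio scaling ended those of Jak2 and Ifnar2. The call of Jak2 was also lost with a pseudocount of 5 and with only the 6 libraries compared. Both comparisons share the untreated libraries, and 13 of the genes were called in both.

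The 8 genes called with TNF and not with TNF plus WBG, each set against untreated cells, were Eif2ak2, Ifi27, Ifih1, Ifitm2, Isg15, Oasl2, Parp12 and Samd9l. Isg15 had 2.75, 2.85 and 3.48 FPKM in TNF plus WBG libraries (limma adjusted p = 0.0612), and it was called without TNF library 1 or 2 (adjusted p 0.0271 to 0.0384). Samd9l (adjusted p = 0.0592) was called without TNF plus WBG library 3 (0.0449), and Parp12 (adjusted p = 0.0801) without TNF library 3 (0.0498). Oasl2 had 2.32, 1.92 and 1.88 FPKM in TNF plus WBG libraries, just above the highest untreated library. Ifih1 had 1.41, 1.45 and 1.45 FPKM and Eif2ak2 10.8, 11.1 and 10.1 FPKM with both agents, also above all untreated libraries (limma adjusted p = 0.0862 for Ifih1 and 0.0596 for Eif2ak2). Ifitm2 had 215.1, 214.2 and 224.0 FPKM in TNF plus WBG libraries (limma adjusted p = 0.192). Samd9l had 4.17, 4.32 and 3.77 FPKM and Parp12 21.2, 20.0 and 21.9 FPKM with both agents. Ifi27, at 39.0, 38.8 and 36.1 FPKM, alone among the 8 had groups that touched, since its lowest TNF plus WBG library was level with the highest untreated one at 3 digits (limma adjusted p = 0.145). The difference between the treated groups, which is the test of such a gap, passed for none of the 8 genes.

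**Figure D4:**
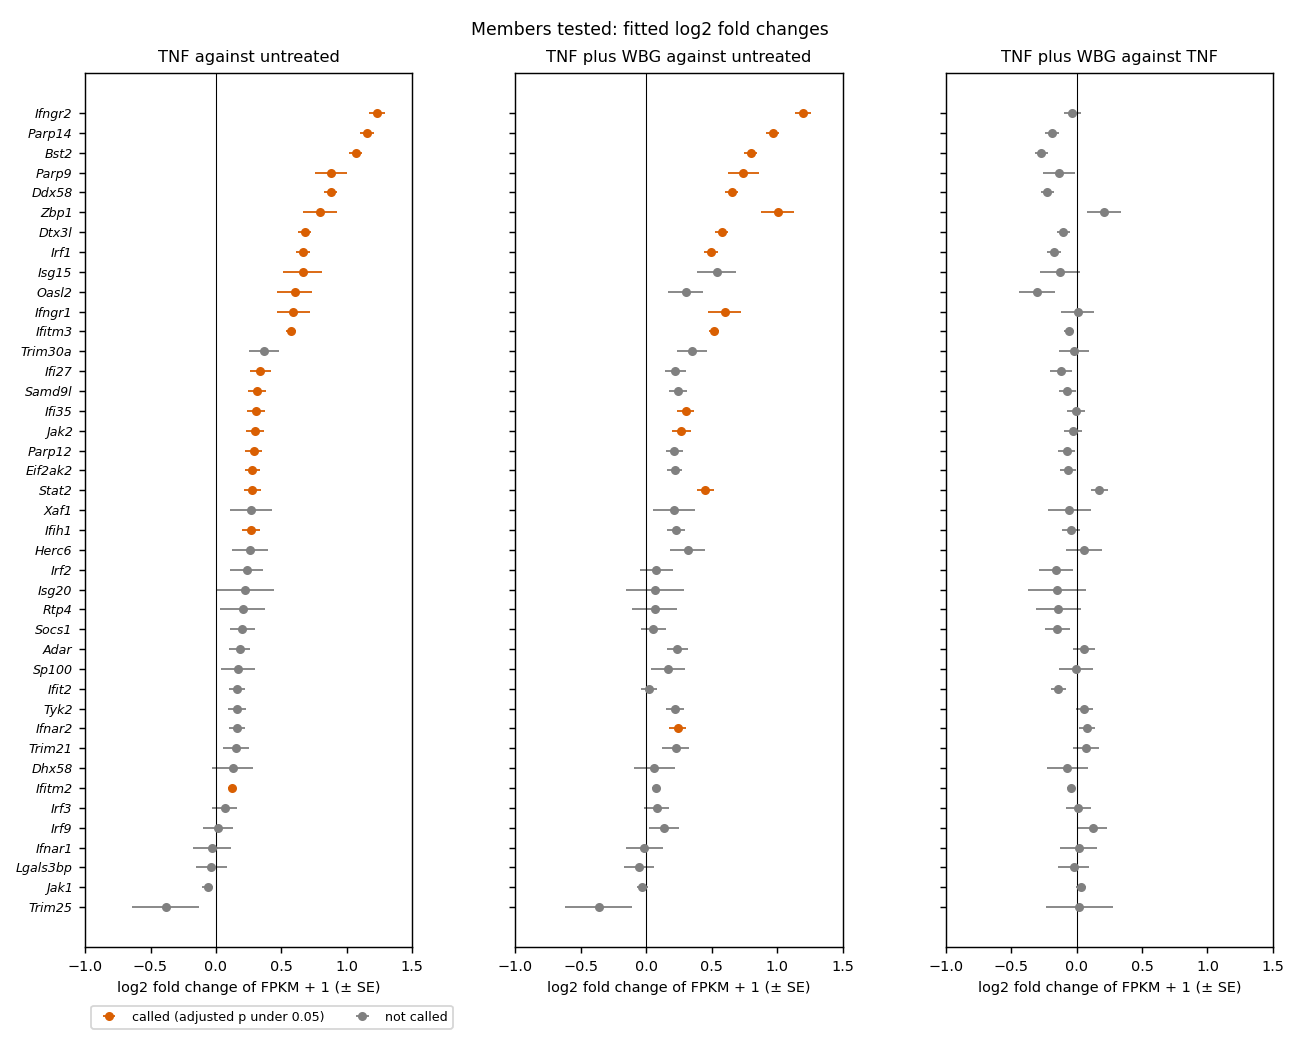
Fitted log2 fold changes of FPKM + 1 with their standard errors for the 41 genes of the set that were tested, in the same order in all 3 panels; orange points are called at an adjusted p under 0.05. Orange points number 21 for TNF against untreated and 14 for TNF plus WBG against untreated, and there is none for TNF plus WBG against TNF.

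Of the further lists against untreated cells with both agents, 3 of the 14 genes of the sensing list rose (Irf5, Traf3 and Ikbke, with 12 tested). Stat6 rose among the JAK-STAT regulators, and 9 of 57 further interferon-stimulated genes rose (36 were tested). Of all genes tested in this comparison, 5.52% rose and 3.67% fell. Ly6a, a surface protein of stem cells and fibroblasts, had 35.1, 41.8 and 32.0 FPKM in TNF plus WBG libraries, against 17.7, 10.9 and 10.4 FPKM in untreated libraries (2.79-fold, limma adjusted p = 0.0186). TNF library 3, at 42.5 FPKM, lay above all 3 TNF plus WBG libraries, while the other 2 TNF libraries had 18.0 and 21.1 FPKM. The call of Ly6a was lost without untreated library 2 or 3 or TNF plus WBG library 1 or 2 (adjusted p 0.0551 to 0.0728). Casp4 rose 3.75-fold (limma adjusted p = 6.63e-06), and Slfn2 rose by a log2 of 0.72 (adjusted p = 0.00717). Slfn2 passed the filter through treated libraries alone, so its call adds no support beyond its values. The call of Irf5 adds none either, since its untreated libraries 1 and 3 lay under 1 FPKM. Ikbke had an adjusted p of 0.0121, and 0.0504 without TNF plus WBG library 2. Leaving out TNF plus WBG library 2 gave 6 rises in place of 9 and 1 fall, leaving out untreated library 1 gave 6 rises, and leaving out untreated library 2 gave 1 fall. The sensing list had 2 rises in the omission of TNF plus WBG library 2.

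Per length, Ifitm2 was the highest gene of the set in each group, with 217.8 ± 5.45 FPKM in TNF plus WBG libraries, 224.5 ± 3.75 FPKM in TNF libraries and 206.5 ± 3.9 FPKM in untreated libraries (SD, n = 3). Ifitm3 was second, and no other gene of the set came near them. In untreated libraries Lgals3bp (49.0 ± 9.34 FPKM), Jak1 (43.3 ± 0.95 FPKM) and Bst2 (42.2 ± 1.13 FPKM; SD, n = 3) came next, and these 3 did not differ beyond their spread. With TNF, Bst2 came next at 89.7 ± 3.82 FPKM, above Ifngr1 and Lgals3bp, which did not differ beyond their spread.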

How the data were processed

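Poly-A RNA of 9 libraries was sequenced as paired ends, per the labels' protocols. The authors deposited FPKM per Ensembl gene; aligner, counter, annotation, build and strand use: not given in the sources used here. Of 56289 identifiers 55144 matched a symbol in GENCODE M21. Exons of 19 of the 53 genes overlap another gene there, so their reads may be shared. Depth is inferred from the smallest step of the values (22.73 to 25.02% of values were whole steps within a tolerance of 0.02, and an even spread gives 4%).

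From the deposited FPKM, log2(FPKM + 1) was fitted with limma 3.58.1 (R 4.3.3, intensity trend) over all 9 libraries, for the 13026 genes with at least 1 FPKM in 3 or more. Tests were two-sided, with Benjamini-Hochberg adjustment over all genes tested, and a gene was called at an adjusted p under 0.05. Fold changes on this log2 scale understate those of low genes. The word "fold" stands for the ratio of mean FPKM, taken only where both means were at least 1 FPKM. The fit was tested on simulated data with known changes and independent normal scatter. Such data cannot show how the fit handles technical replicates or time in culture. The 53 genes and the other lists were chosen with earlier results of these data known. Genes of the set that were called, and receptors, kinases, Stat2 and IRF factors, are given with values and the rest by range and count; of each other list, up to 3 called genes per direction with the largest log2 change are named. Alternatives were other pseudocounts (0.1 and 5), no filter, median-ratio scaling, only the 6 libraries compared, a replicate block and leaving out each library. 1 gene of the JAK-STAT list is not reported here.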

Additional observations from a re-analysis of the deposited data

How the results depend on the processing

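No called difference changed direction under the 15 alternatives. Log2 fold changes near 0 did in 12 of 84 pairs of a gene and a comparison, none of them called, in each case when 1 library was left out (adjusted p at least 0.632 after the change). Over the omissions of 1 library these ran, for TNF against untreated, over the ranges of Ifnar1 (-0.1095 to 0.1172), Irf3 (-0.0056 to 0.1664) and Irf9 (-0.0586 to 0.1301). For TNF plus WBG against TNF they were Ifi35 (-0.0487 to 0.0411), Ifnar1 (-0.1061 to 0.0915), Ifngr1 (-0.0731 to 0.1005), Irf3 (-0.0878 to 0.0842), Isg15 (-0.2635 to 0.0283) and Jak2 (-0.0846 to 0.0233). For TNF plus WBG against untreated they were Ifnar1 (-0.0942 to 0.1325), Irf2 (-0.021 to 0.1682) and Jak1 (-0.0509 to 0.004). The count of 21 interferon genes that rose in TNF against untreated was 13 without a filter on low values and ran over 10 to 20 when 1 library was left out. Over all genes the 1386 calls of that comparison ran over 919 to 1296 when 1 library was left out. The 13 genes called over the whole table in TNF plus WBG against TNF became 8 with only the 6 libraries compared and 8 with the replicate block, and ran over 8 to 14 when 1 library was left out. The 14 rises in TNF plus WBG against untreated ran over 10 to 15. With the replicate block 15 genes rose in TNF against untreated and 11 in TNF plus WBG against untreated; same-numbered libraries did not deviate together (r from -0.072 to 0.107, and 2 of 9 libraries correlated best with their own number), so the numbers are not taken as pairs. The cause of these shifts was not tested. Fewer libraries entered the fits that left some out, and more genes entered the fit without a filter. The replicate block kept the same libraries and genes and added terms for the replicate number. FPKM without counts give no counting error, and genes under 1 FPKM were not tested.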
